A study of Arabidopsis thaliana with 3 samples.

Results

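The starts of the 3559 long noncoding RNA (lncRNA) genes on the 5 nuclear chromosomes of Arabidopsis thaliana were examined for open chromatin in the root. The members were every gene that the RefSeq annotation of TAIR10.1 types as lncRNA (3480 genes) or antisense_RNA (79 genes), out of 37899 annotated genes and pseudogenes. The data were 3 ATAC-seq libraries of 1 group, prepared from root nuclei of Col-0 plants that expressed the INTACT tag and were 14 days old. There was no mutant, treatment or second tissue. By the study's methods the tag was driven by the constitutive 35S promoter, which is not specific to a cell type, and which of several independent transformants gave these libraries is not given in the sources used here. The study calls the libraries biological repeats, and they were made from unequal numbers of nuclei, fewest for library 1 and most for library 3. ATAC-seq uses the Tn5 transposase to place sequencing adapters into exposed DNA, so the number of reads over a region measures how open it is, not how much RNA is made there. INTACT tags the nuclear envelope so that nuclei can be pulled down on streptavidin beads.

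lncRNAs are transcripts without a long open reading frame. Some are transcribed from the strand opposite a protein-coding gene and are called natural antisense transcripts, some share a promoter region with a gene read in the other direction (divergent), and others stand by themselves between genes. In plants the best studied ones act on flowering, on the clock and on hormone signalling. Promoters of transcribed genes are usually depleted of nucleosomes just upstream of the transcription start site (TSS), which gives an ATAC-seq peak there.

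Each member was placed by its annotated TSS. A start was called nearby when it lay inside a protein-coding gene or within 1000 bp of a protein-coding TSS, and stand-alone otherwise. Of the members, 2086 were nearby and 1473 stand-alone. The nearby starts were divided into 1539 promoter-side starts, within 1000 bp of a protein-coding TSS, and 547 gene-body starts, which lay inside a protein-coding gene but farther from any such TSS. Most members were short and simple, with a median length of 338 bp (range 96 to 9515 bp) and a single exon in 3014 of them. The start lay in a protein-coding gene of the opposite strand in 1243 members and of the same strand in 60. A further feature of the stand-alone members was that 237 of them (16.1%) had another lncRNA start within 400 bp, so their windows share reads.

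Sequences around 5 starts are printed here because these members carry the results given further on: the antisense RNA of the flowering repressor FLC, the most open nearby start and 3 of the 5 most open stand-alone starts. Each runs 5′ to 3′ on the strand of the lncRNA, from 250 bases before the start to 50 bases from it on, cut where it would enter a protein-coding gene. Capitals mark matches on either strand to TATAAA, a core promoter element, to CACGTG (the G-box of bHLH and bZIP factors), to GGCCCA (site II, a motif of TCP factors) and to AAACCCTA (telo box). The bases are from RefSeq TAIR10.1.
AT5G01675 (COOLAIR, antisense to FLC, chr5:3173121-3173381, + strand): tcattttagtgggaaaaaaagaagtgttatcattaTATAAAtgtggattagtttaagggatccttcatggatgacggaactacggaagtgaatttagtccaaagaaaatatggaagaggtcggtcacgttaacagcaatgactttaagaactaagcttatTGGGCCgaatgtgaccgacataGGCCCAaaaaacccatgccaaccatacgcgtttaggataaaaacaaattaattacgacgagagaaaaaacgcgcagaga
AT1G05473 (divergent to JAZ1, chr1:6621022-6621321, - strand): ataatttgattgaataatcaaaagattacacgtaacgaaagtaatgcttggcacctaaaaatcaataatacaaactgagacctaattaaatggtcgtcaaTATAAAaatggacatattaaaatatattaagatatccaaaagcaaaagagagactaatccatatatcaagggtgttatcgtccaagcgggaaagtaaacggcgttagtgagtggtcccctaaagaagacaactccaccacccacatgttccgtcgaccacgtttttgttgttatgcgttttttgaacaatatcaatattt
AT1G06607 (stand-alone, chr1:11831395-11831694, - strand): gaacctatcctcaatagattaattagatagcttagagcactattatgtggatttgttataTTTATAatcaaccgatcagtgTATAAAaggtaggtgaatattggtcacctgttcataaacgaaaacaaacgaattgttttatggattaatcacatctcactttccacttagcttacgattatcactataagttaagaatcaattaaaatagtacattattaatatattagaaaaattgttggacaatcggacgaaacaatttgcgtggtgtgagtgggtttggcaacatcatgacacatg
AT5G03755 (stand-alone, upstream of PRR5, chr5:8359586-8359885, + strand): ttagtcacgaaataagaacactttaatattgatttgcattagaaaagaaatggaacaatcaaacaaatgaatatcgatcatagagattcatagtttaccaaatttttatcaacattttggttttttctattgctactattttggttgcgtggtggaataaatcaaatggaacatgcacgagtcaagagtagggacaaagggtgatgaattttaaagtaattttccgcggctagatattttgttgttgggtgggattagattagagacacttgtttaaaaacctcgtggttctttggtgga
AT4G06205 (stand-alone, upstream of CIPK4, chr4:8371394-8371693, - strand): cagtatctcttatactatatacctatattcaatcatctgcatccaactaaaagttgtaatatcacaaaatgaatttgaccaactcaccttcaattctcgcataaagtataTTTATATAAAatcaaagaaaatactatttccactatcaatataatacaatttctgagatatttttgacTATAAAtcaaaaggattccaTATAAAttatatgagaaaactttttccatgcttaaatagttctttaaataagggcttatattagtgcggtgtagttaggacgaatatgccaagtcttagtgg

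The start region of COOLAIR held a pair of site II matches, at positions -90 and -68 from the start, and a TATA match at -215. None of the 4 motifs was found in the printed window of AT5G03755, while that of AT4G06205 had 4 TATA matches, of which the pair at -140 and -136 overlap.

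Depth and coverage set the precision of the values. The libraries held an estimated 9850039, 10223285 and 18130442 reads, and a member's window of 400 bp on each side of its start had a median of 73, 76 and 138 estimated reads in libraries 1, 2 and 3. Signal is the average window count around a start over that of the library's whole nuclear genome, so 1 is the genome mean. Of the members, 118 had windows in which under 90% of stretches of 61 bases occur once in the genome. The members' folds ranked alike in the libraries, with Spearman's rho of 0.949, 0.971 and 0.951 between pairs of libraries over the 3559 windows, which are not independent.

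By mean signal lncRNA starts exceeded the genome mean, at the level of annotated starts as a whole, but were below protein-coding starts. Their mean signal was 1.29, 1.37 and 1.27 in libraries 1, 2 and 3 (1.31 ± 0.0529, SD, n = 3), against 1.42, 1.55 and 1.38 (1.45 ± 0.0913) at the 27444 protein-coding starts. The ratio of lncRNA to protein-coding starts was 0.910, 0.882 and 0.921, below 1 in each library and farther from it than the spread between libraries. The exact sign-flip permutation test over the 3 libraries gave p = 0.25 (two-sided), the smallest value that 3 libraries allow, and this holds for every ratio and difference below that kept its direction in all libraries. All 37899 gene and pseudogene starts averaged 1.30 ± 0.0654. By the median over starts, lncRNA starts were lower, with 1.12 ± 0.0172 against 1.21 ± 0.0418 for all starts. The median of stand-alone lncRNA starts was 0.994 ± 0.0274, about the genome mean. Starts of miRNA genes averaged 1.05 ± 0.0323 (n = 326 genes) and those of pseudogenes 0.431 ± 0.0824 (n = 4843 genes). On chromosomes 1 to 5 the mean member signal in library 1 was 1.28, 1.28, 1.21, 1.32 and 1.36, lowest on chromosome 3 and highest on chromosome 5.

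Accessible sites, the peaks called in each library separately, were less frequent at lncRNA starts. A site overlapped 29.8%, 37.7% and 35.3% of lncRNA windows in libraries 1, 2 and 3, against 42.5%, 57.5% and 50.5% of protein-coding windows. Over all 37899 starts the shares were 36.4%, 48.6% and 43.2%. The difference between lncRNA and protein-coding windows was -15.9 ± 3.62 percentage points (SD, n = 3, exact sign-flip permutation test, p = 0.25). A site was present in all 3 libraries at 961 members (27.0%), against 10837 protein-coding starts (39.5%) and 33.7% of all starts. No library had a site at 2074 members (58.3%), against 39.1% of protein-coding starts. Where a site was present its strength was much the same, since the median over members of the authors' fold enrichment at the strongest overlapping site was 3.30, 3.39 and 2.81 in libraries 1, 2 and 3, against 3.27, 3.50 and 2.79 at protein-coding starts.

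**Figure D1:**
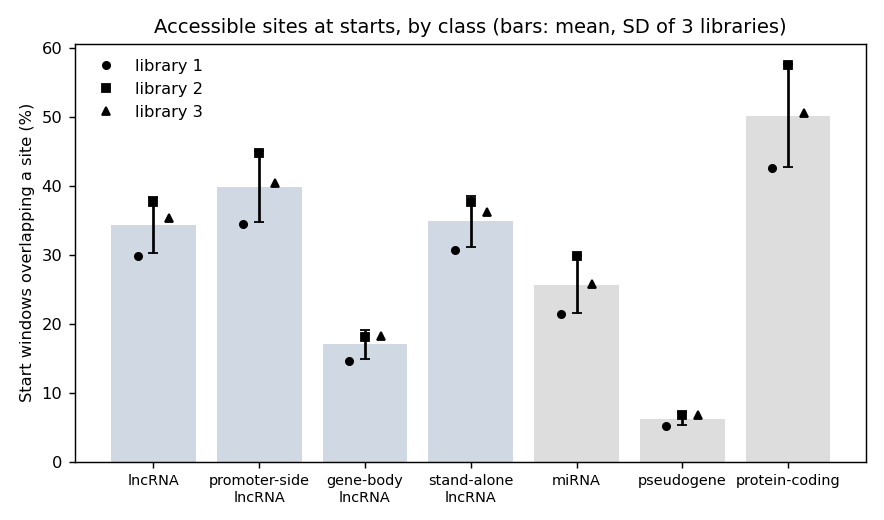
Share of start windows that overlap an accessible site (y axis, %) for lncRNA starts, their 3 classes, and miRNA, pseudogene and protein-coding starts. Points are the libraries, bars the mean and error bars the SD of 3 libraries. Gene-body lncRNA starts lie lowest among the lncRNA classes (14.6% to 18.3%) and protein-coding starts highest of all (42.5% to 57.5%).

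Nearby and stand-alone starts differed little in their mean. Nearby starts had a signal of 1.33, 1.39 and 1.32 in libraries 1, 2 and 3, against 1.23, 1.34 and 1.20 at stand-alone starts, a ratio of 1.07 ± 0.0269 (exact sign-flip permutation test, p = 0.25). Their site shares were 29.2%, 37.7% and 34.6%, against 30.6%, 37.6% and 36.3% at stand-alone starts. That difference of -0.966 ± 0.948 percentage points did not keep its sign in library 2 (exact sign-flip permutation test, p = 0.5). Among starts with at least 15 protein-coding TSSs within 50 kb the signal ratio was 1.01 ± 0.0345, smaller than its spread (p = 0.75 by the exact permutation test). The site share difference among those starts was -3.60 ± 1.01 percentage points, with the same sign in each library (exact sign-flip permutation test, p = 0.25). At the boundary of the split, outside protein-coding genes, the 69 members at 901 to 1000 bp from a protein-coding TSS averaged 1.29 ± 0.0476 and the 80 at 1001 to 1100 bp averaged 1.43 ± 0.133.

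The 3 classes differed in their spread and in where the nearby starts lay. Promoter-side starts had a signal of 1.37, 1.47 and 1.35 in libraries 1, 2 and 3 with sites at 34.4%, 44.7% and 40.4% of them. Gene-body starts had 1.20, 1.18 and 1.23 with sites at 14.6%, 18.1% and 18.3%. The ratio to protein-coding starts was 0.833 ± 0.0653 for gene-body starts and 0.867 ± 0.00625 for stand-alone starts (exact sign-flip permutation tests, p = 0.25 each). Gene-body starts lay close together, with 47.7% of them between 0.75 and 1.25 of the genome mean, against 24.0% of stand-alone starts. Stand-alone starts were more spread out than gene-body starts: 16.2% were under 0.5 and 19.1% at 2 or more, against 3.29% and 8.41%. Over all 37899 starts these shares were 16.6% and 18.6%, and 23.9% lay between 0.75 and 1.25. The spread of stand-alone starts was thus close to that of annotated starts in general.

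**Figure D2:**
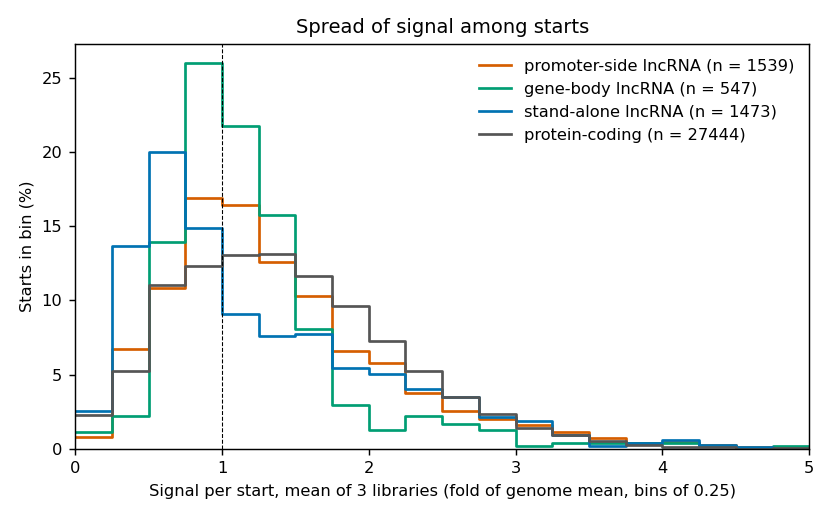
Distribution of the signal per start (x axis, mean of 3 libraries as fold of the genome mean, bins of 0.25, values above 5 in the last bin) as the percentage of starts in each bin (y axis), for the 3 lncRNA classes and protein-coding starts. Gene-body starts (n = 547) pile up around 1, while stand-alone starts (n = 1473) are most frequent under 1 and reach 4.70, against 5.56 for protein-coding starts.

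Single windows were tested against the genome mean with edgeR's quasi-likelihood test on estimated reads, fitted over 36945 starts with at least 10 estimated reads, and called at a Benjamini-Hochberg adjusted p under 0.05. Over all tested starts 54.3% were called above and 29.9% below the genome mean. Of the 3559 members, 3549 passed the read minimum, and 1726 of these were above (48.6%) and 1082 below (30.5%). Protein-coding starts were above in 62.0% and below in 21.5% of 27135 tested. Among stand-alone members the calls were almost even, with 635 above and 602 below of 1470 tested. Promoter-side members had 849 above and 350 below of 1537, and gene-body members 242 above and 130 below of 542. With the median window instead of the mean as reference, 1972 members were above and 758 below, and with the mean of windows that hold reads 1577 and 1258. These references put the median member at a log2 fold of 0.42 and 0.07, against 0.16 with the genome mean.

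The position of the signal relative to the start differed between lncRNA and protein-coding genes. At stand-alone lncRNA starts the mean profile was highest at 100, 50 and 100 bp downstream of the start in libraries 1, 2 and 3, and at promoter-side starts at 75, 50 and 50 bp. Around protein-coding starts it was highest at 0, -25 and 0 bp. Signal in the 400 bp downstream of stand-alone starts was 1.24, 1.20 and 1.23 times that in the 400 bp upstream (1.22 ± 0.0182), against 0.953, 0.851 and 0.989 (0.931 ± 0.0717) at protein-coding starts, with no overlap between the libraries' values. Lone protein-coding starts had no other protein-coding or lncRNA start within 1000 bp and lay outside other protein-coding genes. Their ratio was 0.983, 0.871 and 1.02 (0.958 ± 0.0776), so its direction changed in library 3 (exact sign-flip permutation test, p = 0.75). The ratio was 1.15 ± 0.00667 at promoter-side and 1.04 ± 0.0272 at gene-body starts. The neighbouring protein-coding TSS lies on the downstream side of 670 antisense and 225 same-strand upstream starts. It lies on the upstream side of the other promoter-side starts. The ratio was not split by orientation, so the signal of that promoter was not separated from it. In each library the downstream side was the more open one at stand-alone and promoter-side starts. At gene-body starts the ratio was 1.05, 1.01 and 1.05 in libraries 1, 2 and 3. In library 2 the downstream side was the higher one at 48.4% of them. The gene-body profile was nearly flat (highest mean 1.06 ± 0.00370 times the mean at 900 to 1000 bp on both sides).

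At stand-alone starts the summits of the accessible sites lay mostly on the same side. Of stand-alone starts with a summit within 400 bp, the nearest one was upstream in 32.6%, 35.1% and 30.4% in libraries 1, 2 and 3, against 58.4%, 56.8% and 54.3% of protein-coding starts. At lone protein-coding starts it was upstream in 56.4%, 54.2% and 51.3%. For gene-body starts the upstream share was 47.0%, 51.1% and 47.7%. The median offset was 59.7 ± 9.07 bp at stand-alone and -20.3 ± 6.51 bp at protein-coding starts. Among the 985 stand-alone starts with no other lncRNA start within 1000 bp the nearest summit was upstream in 38.1 ± 2.19%, and the downstream side had 1.19 ± 0.0202 times the signal of the upstream side. The share was 39.9 ± 3.45% for stand-alone genes of at least 500 bp and 30.6 ± 1.91% for shorter ones. How exactly the annotated starts mark the true starts was not tested, and a site of another element downstream cannot be told apart from the gene's own.

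**Figure D3:**
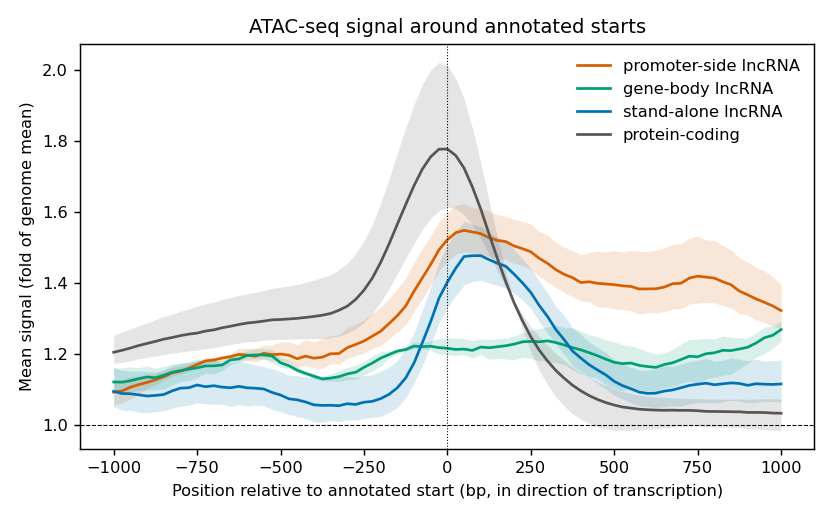
Mean signal (y axis, fold of the genome mean) by position from the annotated start (x axis, bp, positive in the direction of transcription) for the 3 lncRNA classes and protein-coding starts. Lines are the mean and bands the range of 3 libraries. The protein-coding profile is highest at the start, the stand-alone and promoter-side lncRNA profiles 50 to 100 bp downstream of it, and the gene-body profile is nearly flat.

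Promoter-side starts were examined by their orientation to the nearest protein-coding TSS. The 590 divergent starts, upstream on the opposite strand, were the most open, with 1.55, 1.72 and 1.47 in libraries 1, 2 and 3 (1.58 ± 0.128) and a site at 50 ± 5.70%. Upstream starts of the same strand (n = 225) had 1.33 ± 0.0793 and antisense starts downstream of the TSS (n = 670) had 1.30 ± 0.0138. The 54 starts downstream on the same strand had 0.950, 0.890 and 0.985, under the genome mean in every library, with a site at 12.3 ± 2.83%. Protein-coding starts that lie divergent to another protein-coding TSS within the same distance (n = 5087) averaged 1.66 ± 0.0990 with a site at 66.6 ± 7.78%, so the divergent lncRNA starts had a lower site share.

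A window near a protein-coding TSS takes in the signal of that promoter. Each promoter-side start was therefore set against the mean signal at the same distance from 25801 protein-coding TSSs that have no lncRNA start within 1000 bp. Divergent lncRNA starts had 1.18, 1.19 and 1.15 times the signal of the same offset without a lncRNA (1.17 ± 0.0190), and antisense downstream starts 1.07, 1.11 and 1.08 times (1.09 ± 0.0174). The ratio was 1.01 ± 0.00335 for upstream starts on the same strand and 0.864 ± 0.0169 for downstream starts on the same strand (exact sign-flip permutation tests, p = 0.25 each). Genes were not matched for their own openness here, and the neighbours of promoter-side members averaged 1.5 ± 0.0988 at their own TSS. Set against that TSS, members had 0.934 ± 0.0192 times the signal, and 463 of 1539 (30.1%) were more open than their neighbour in all 3 libraries.

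By distance, the highest mean was at -200 to -1 bp from the protein-coding TSS, with 1.74 ± 0.142 (n = 140) and a site at 60.2 ± 8.99%. From 0 to 200 bp downstream it was 1.53 ± 0.0917, from 201 to 400 bp 1.39 ± 0.0456, from 401 to 700 bp 1.17 ± 0.0395 and from 701 to 1000 bp 1.15 ± 0.0324. Upstream there was no steady decline, with 1.46 ± 0.104 at -400 to -201 bp, 1.52 ± 0.126 at -700 to -401 bp and 1.40 ± 0.0916 at -1000 to -701 bp.

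**Figure D4:**
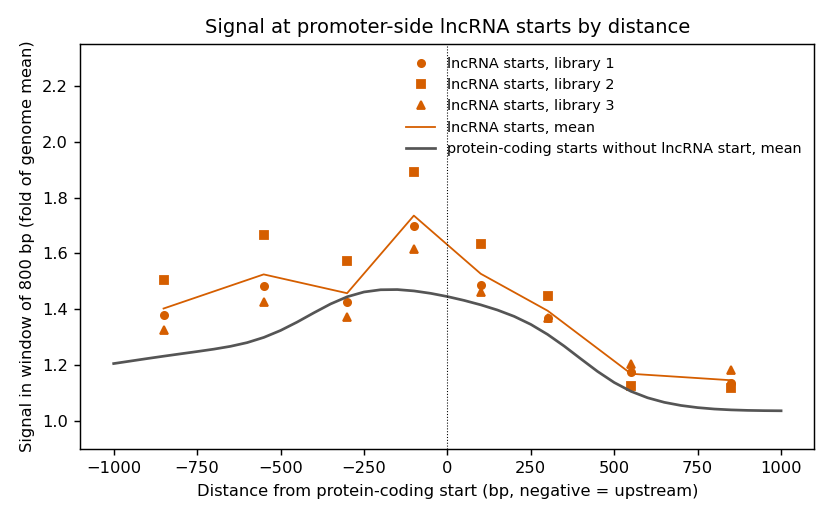
Signal at promoter-side lncRNA starts (y axis, window of 800 bp, fold of the genome mean) by distance from the protein-coding TSS (x axis, bp, negative upstream), as library values and their mean in 8 distance bins, with the mean signal at the same offsets from protein-coding TSSs without a lncRNA start. The lncRNA means are 1.74 at -200 to -1 bp and 1.15 at 701 to 1000 bp.

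Among gene-body starts, those near the 3′ end of the gene on the other strand were the most open. Of the 547, 517 were antisense to the gene they lay in. Within 200 bp of that gene's end the signal was 1.47, 1.53 and 1.45 in libraries 1, 2 and 3 (1.48 ± 0.0391, n = 111 genes) and 34.2 ± 2.70% had a site. It was 1.22 ± 0.0284 at 201 to 400 bp, 1.20 ± 0.0251 at 401 to 1000 bp, and 1.02 ± 0.0580 beyond 1000 bp (n = 154 genes), where 7.58 ± 0.992% had a site. Tiles of the same length were placed every 800 bp in gene bodies over 1000 bp from any protein-coding TSS. Those within 800 bp of a lncRNA start were left out. The tiles averaged 0.970 ± 0.0603 (n = 41345), and gene-body lncRNA starts had 1.22, 1.31 and 1.20 times that (1.24 ± 0.0572). The tiles were not matched for distance to the gene's end. Antisense gene-body members over 1000 bp from that end had 1.02 ± 0.0580, and the part of this distance in the ratio was not tested.

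The same was asked from the side of the protein-coding genes. Gene ends with an antisense lncRNA start within 400 bp (n = 413) had a signal of 1.28, 1.33 and 1.28 in libraries 1, 2 and 3, against 1.08, 1.13 and 1.09 at 16990 ends without one. Ends within 1000 bp of the TSS of another protein-coding gene were left out. The ratio was 1.18 ± 0.0125 (exact sign-flip permutation test, p = 0.25), and a site was present at 26.9 ± 2.79% of ends with and 19.1 ± 3.63% of ends without an antisense lncRNA start. Among genes of at least 2000 bp the ratio was 1.23 ± 0.0217 (n = 160 and 8732).

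Stand-alone starts were set against intergenic tiles and against the density of genes around them. Their signal was 1.79, 1.98 and 1.80 times that of 44208 tiles outside protein-coding genes and over 1000 bp from any protein-coding TSS (1.86 ± 0.106). Much of the intergenic sequence is repetitive, and with members and tiles whose windows were at least 90% unique the ratio was 1.48 ± 0.0709 (n = 1405 members and 32578 tiles). Where, in addition, at least 15 protein-coding TSSs lay within 50 kb it was 1.17, 1.15 and 1.17 (1.16 ± 0.00905, n = 1215 members and 19508 tiles), with a site at 34.7%, 42.1% and 40.6% of members against 25.5%, 34.5% and 31.3% of tiles. The ratio thus moved by over 1.5 times when members and tiles were restricted in this way but stayed above 1 in each library.

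Stand-alone starts in gene-poor surroundings had little signal. With 0 to 4 protein-coding TSSs within 50 kb they had 0.541, 0.362 and 0.495 in libraries 1, 2 and 3 (n = 44 genes). Of these 44, edgeR called 42 below the genome mean, against 145 of 210 lone protein-coding starts in the same surroundings. The share over all starts tested was 29.9%. Lone starts are, as above, those outside other protein-coding genes and without another protein-coding or lncRNA start within 1000 bp. With 5 to 14 TSSs the mean was 0.747 ± 0.0549, with 15 to 24 it was 1.29 ± 0.0959, and with 25 or more 1.40 ± 0.0885. Lone protein-coding starts (n = 18894) had 0.702 ± 0.0666 in the most gene-poor and 1.42 ± 0.0856 in the most gene-rich group. Members over 5000 bp from any protein-coding gene (n = 126) averaged 0.741 ± 0.0568. Across stand-alone members Spearman's rho of signal with the number of TSSs was 0.274 and with the unique share of the window 0.364 (n = 1473 windows of the same libraries), as a description.

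**Figure D5:**
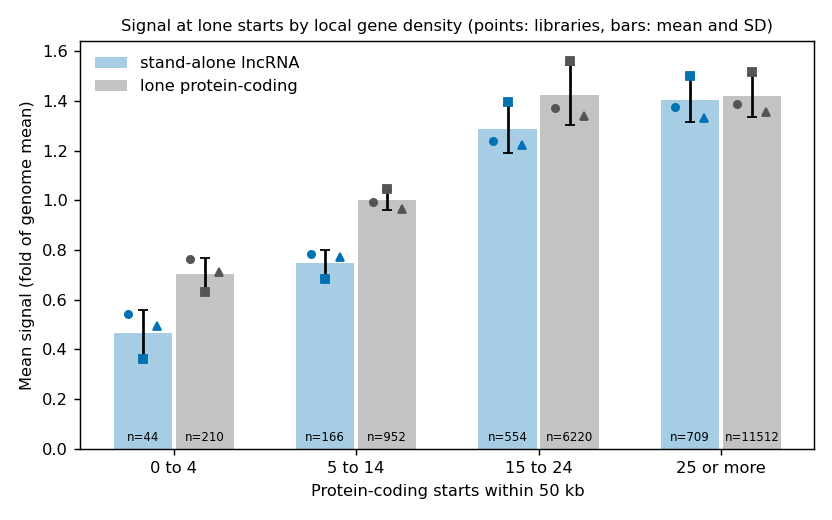
Mean signal (y axis, fold of the genome mean) at stand-alone lncRNA starts and lone protein-coding starts by the number of protein-coding TSSs within 50 kb (x axis). Points are libraries, bars the mean and error bars the SD of 3 libraries, with the number of genes at the foot. Stand-alone lncRNA starts average 0.466 with 0 to 4 TSSs and 1.40 with 25 or more.

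The promoter motifs were less frequent at lncRNA starts. Over the window from 250 bases before to 50 bases from the start, on both strands, GGCCCA was found at 6.97% of members, against 15.5% of protein-coding and 13.0% of all starts. CACGTG was found at 4.02%, against 7.68% and 6.46%, TATAAA at 40.2%, against 52.1% and 48.8%, and AAACCCTA at 4.36%, against 6.22% and 6.18%. A TATA box usually sits about 50 to 15 bp upstream. A TATAAA on the strand of the gene, lying wholly within that stretch, was present in 3.65% of members and 8.94% of protein-coding genes. Members with a G-box match (n = 143) had a signal of 1.78, 1.96 and 1.67 in libraries 1, 2 and 3, against 1.27, 1.35 and 1.25 without one. Over all starts the signal was 1.79 ± 0.130 with and 1.27 ± 0.0611 without a G-box, and at protein-coding starts 1.85 ± 0.138 and 1.42 ± 0.0876. At members with a site II match (n = 248) the signal was 1.78 ± 0.113, against 1.27 ± 0.0486 without. An accessible site was present at 63.7 ± 3.63% of them, against 32.1 ± 4.07%. Among protein-coding starts those with site II had 1.89 ± 0.121 and those without 1.37 ± 0.0864, with a site at 81.3 ± 6.56% and 44.4 ± 7.67%. Over all starts the site shares were 77.5% with and 37.5% without site II. For TATAAA the directions were opposite, with 1.40 ± 0.0861 at members with and 1.25 ± 0.0308 at members without a match, and 1.41 ± 0.0968 with and 1.49 ± 0.0853 without at protein-coding starts. For the telo box the values were 1.33 ± 0.0561 at members with and 1.31 ± 0.0527 at members without a match, and the direction was not the same in the classes: 1.46 ± 0.0668 and 1.34 ± 0.0397 at nearby starts, 1.12 ± 0.0387 and 1.26 ± 0.0712 at stand-alone starts.

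Of a short list of lncRNAs with a published name, COOLAIR and FLORE were found among the members. The members were not searched for every published name. COOLAIR (AT5G01675) is a set of antisense transcripts of FLC, which represses flowering until the plant has passed a cold period. Its start lies just beyond the 3′ end of FLC. Its signal was 1.58, 1.62 and 1.63 in libraries 1, 2 and 3, with a site in all 3 libraries. By edgeR it was above the genome mean (log2 fold 0.69 ± 0.092, SE derived from the test statistic, adjusted p = 8.5e-09). The libraries differed by little, and the start of the nearest protein-coding gene by TSS, AT5G10130, had 1.17, 1.09 and 1.07. COOLAIR starts at -670 bp from it, so the windows partly overlap. FLORE (AT1G69572), a clock-regulated antisense RNA of the CDF5 gene, had 1.45, 1.51 and 1.54 and no site in any library (log2 fold 0.59 ± 0.091, adjusted p = 2.1e-07 by edgeR). It starts 23 bp inside the end of CDF5, whose own start had 1.65, 1.85 and 1.53.

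A pair of members nearest to MRN1, the marneral synthase gene of a root triterpene cluster, AT5G06325 and AT5G06335, overlap on opposite strands with starts 366 bp apart, so their windows share reads. AT5G06325 had 0.979, 1.48 and 1.09 and AT5G06335 had 1.00, 1.56 and 1.13, both highest in library 2 and with no site. IPS1, AT4 and APOLO are typed protein-coding in this annotation, ASCO, ELENA1 and DRIR ncRNA and MARS misc_RNA, and these were not members.

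The most open nearby start was that of AT1G05473, at -706 bp and divergent to JAZ1, a repressor of jasmonate signalling. It had 5.98, 6.14 and 4.32 in libraries 1, 2 and 3 (log2 fold 2.44 ± 0.17, adjusted p = 3.2e-15 by edgeR), against 4.11, 5.0 and 3.45 at the start of JAZ1. AT2G09535, at -535 bp from AT2G44660, had 5.90, 6.05 and 4.33, against 3.89, 3.62 and 3.03 at its neighbour. Both were chosen for their high signal, so a value above that of the neighbour is a description only. AT2G45685 starts 23 bp inside the 3′ end of TCP9, a TCP transcription factor gene, and had 5.06, 5.20 and 4.10. AT5G09915, at -151 bp from LBD37, a transcription factor gene of nitrogen responses, had 4.96, 4.64 and 3.98, and its window overlaps most of that of LBD37 (4.68, 4.14 and 3.77). AT1G06627, at -541 bp from AT1G32920, had 4.56, 5.30 and 3.71. Its window shares reads with that of this neighbour and with that of another lncRNA start 317 bp away. A site in every library was part of the choice of these 5 starts, and library 3 gave the lowest fold each time.

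The most open stand-alone starts reached a somewhat lower level. AT1G06607 had 4.74, 5.47 and 3.91 in libraries 1, 2 and 3, against 2.33, 2.71 and 2.13 at the nearest protein-coding start, AT1G32710. AT5G03755 lies at -1290 bp from PRR5, a pseudo-response regulator of the circadian clock, and had 4.89, 5.0 and 3.90, against 2.03, 2.43 and 1.93 at PRR5. The authors' fold enrichment of its site was 5.40, 4.61 and 4.06. AT5G04605 had 4.62, 4.89 and 3.90 and has another lncRNA start 231 bp away. AT4G06205, at -2131 bp from CIPK4, a kinase gene of calcium signalling, had 4.55, 5.01 and 3.69, against 1.33, 1.67 and 1.54 at CIPK4. AT4G07240 had 4.61, 4.95 and 3.60. Another lncRNA start lies 346 bp from it. The 5 were chosen for their high signal, so the values beside those of their neighbours are a description only, and library 3 was again the lowest.

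At the other end, the least open nearby starts with under 10% empty windows were AT1G09857 (0.239, 0.246 and 0.258 in libraries 1, 2 and 3), AT3G06725 (0.419, 0.182 and 0.242) and AT2G05495 (0.374, 0.138 and 0.364). Under the same limit on empty windows, the least open stand-alone starts were AT2G08085 (0.236, 0.145 and 0.264), AT3G06285 (0.258, 0.152 and 0.279) and AT2G05465 (0.301, 0.140 and 0.342). None of these 6 had a site, and library 2 was the lowest in 5 of them. AT2G05495 and AT2G05465 sit in the same gene-poor stretch, each with 1 protein-coding TSS within 50 kb, and their starts are 725 bp apart, so their windows share reads.

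Library 2 also stood apart at the members with the largest ratio between libraries. AT3G09965, antisense within the carboxypeptidase-like gene scpl40, had 1.39, 0.627 and 1.47 in libraries 1, 2 and 3, lowest in library 2, and 52.7% GC. AT1G08127 had 1.54, 2.59 and 1.29, highest in library 2, and 27.6% GC. AT5G08455, which starts 18 bp inside HAP8, so that both starts take in the same count windows, had 1.17, 2.30 and 1.53 and 28.6% GC. Stand-alone members with under 32% GC averaged 1.21, 1.42 and 1.16 and those with 36% GC or more 1.15, 1.10 and 1.13, so GC content moved with the library. Its part in the values was not tested.

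Named after their values had been seen, the most open gene-body starts besides AT2G45685 were AT2G19582 in the tetraspanin gene TET2 (4.56, 4.90 and 3.49 in libraries 1, 2 and 3), AT2G24545 in the F-box gene AFR (3.99, 4.73 and 3.76), AT5G59732 in the exocyst gene EXO70H7 (4.16, 4.59 and 3.29) and AT2G09250 in the response regulator gene RR3 (4.30, 4.08 and 3.37). AT2G24545 starts 22 bp, AT5G59732 75 bp and AT2G09250 79 bp inside the end of the gene they are antisense to, whereas AT2G19582 starts 1471 bp from it. AT5G59732 also lies 1627 bp downstream of the start of HSP18.2, a small heat shock protein gene, which had 1.58, 1.91 and 1.67.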

How the data were processed

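ATAC-seq was measured in 3 libraries of root nuclei, treated as replicates of 1 group. The study calls them biological repeats, but neither the labels nor the methods say which plants gave each one, and they differ in the number of nuclei used, so the spread may be partly technical. Mapping to TAIR10 was done by the authors with Bowtie. Only uniquely placed reads were retained, PCR duplicates were taken out, and peaks came from MACS2 in each library separately. They deposited raw read counts over windows of 100 bp starting every 25 bp, with empty windows left out (counted as 0 here). The deposited peak lists give a score (not used), a fold enrichment (a ratio), and −log10 of the p-value and q-value. Reads were shifted and extended for peak calling; whether they were shifted for the window counts is not given in the sources used here.

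Counts were summed over windows whose centre lay within 400 bp of a TSS and divided by the library's genome mean. Dividing by the windows a read covers (6.27, 6.34 and 6.28) gave estimated reads. The depth was 9850039, 10223285 and 18130442 estimated reads. Site overlap was counted from 1 bp. Class means were compared by exact sign-flip permutation over libraries, since genes of 1 library share their source. For the test of single starts, the quasi-likelihood F statistic of edgeR 4.0.16 (R 4.3.3) was written out, because its test function does not take an intercept-only design, and was tested on simulated data. The SE given with a log2 fold was derived from it, as the absolute log2 fold over the square root of F. limma 3.58.1 served as an alternative. Other steps used Python 3.11.15, numpy 2.4.6 and pandas 2.3.3. Genes and sequences were those of RefSeq TAIR10.1, whose nuclear chromosomes match the files' ends.

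Named members were those with a published name on a short list or beside listed genes. From the nearby and from the stand-alone starts, the 5 highest with sites in all libraries were added. So were the 3 lowest of each with under 10% empty windows in every library. The last were the 3 with the largest ratio between libraries among those with a mean fold of at least 1. Members and lists were chosen with earlier results of these data known. The comparisons with tiles and with equal offsets, and the splits by uniqueness and gene density, were added after the data had been seen.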

Additional observations from a re-analysis of the deposited data

How the results depend on the processing

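Classes of starts were compared within each library. Groups of samples could not be compared or paired because the libraries form 1 group. Of 65 alternatives that kept all libraries, 44 left the value within the spread between libraries or within 1.5 times for a count, 21 moved it and 0 reversed it. The signal ratio of lncRNA to protein-coding starts moved to 0.845 with windows of 200 bp on each side, 0.822 with medians and 0.942 against lone protein-coding starts. That of nearby to stand-alone starts moved to 1.18 with medians, 1.02 and 1.13 with nearby set at 500 and 2000 bp, and 1.01 with at least 15 protein-coding TSSs within 50 kb. At 500 bp (1.02 ± 0.0420) it was within its spread and did not keep its direction in all libraries (exact sign-flip permutation test, p = 0.5). The signal ratio of stand-alone to protein-coding starts moved to 0.821 with 200 bp, 0.732 with medians and 0.879 with starts within 400 bp merged. It moved to 0.904 against lone starts, 0.894 and 0.822 at 500 and 2000 bp, and 0.916 in gene-dense regions. That of gene-body to protein-coding starts moved to 0.754 with 200 bp. The gene end ratio moved to 1.22 with antisense starts within 200 bp and 1.23 for genes of at least 2000 bp. The difference in site share between lncRNA and protein-coding starts moved to -11.0 points with −log10 q of at least 5. The difference between nearby and stand-alone starts moved to -2.96 with summits, -2.12 with 200 bp and -3.60 in gene-dense regions.

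Leaving out 1 library at a time gave 0.896 to 0.916 for lncRNA to protein-coding signal, 1.06 to 1.09 for nearby to stand-alone, 0.865 to 0.871 for stand-alone to protein-coding, 0.805 to 0.869 for gene-body to protein-coding and 1.17 to 1.18 for gene ends. Site share differences were -17.5 to -13.9 and -1.51 to -0.629 points. Members called above numbered 1560 to 1764 and below 836 to 1118. Regions with few reads limit the calls below the genome mean, and 10 members had under 10 estimated reads.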
